A study of Mus musculus with 2 samples.

Results

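The mitotic machinery described here is a list of 50 genes that encode mitotic cyclins and kinases, spindle motors, condensin subunits, regulators of anaphase and cytokinesis proteins. A gene entered through the probe sets whose only gene symbol in the platform annotation was its current or former name. On that rule 49 of the 50 genes had a probe set of their own (111 probe sets in all), out of 18193 genes and 45101 probe sets on the array. The exception was Ccnb1, the gene of cyclin B1, for which no value is given. Kif14 and Kif15, which encode mitotic kinesins, had signals below the floor on both arrays, so 47 genes were measured, against 11830 genes in the whole series.

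The RNA came from 2 mouse osteosarcoma lines without any treatment, Dunn, labelled as the non-metastatic parental line, and LM8, labelled as its highly metastatic subline. Both were grown in the same medium with 10% serum, and 10 µg of total RNA from each was labelled for an Affymetrix mouse array. There was 1 array per line, the labels name no separate cultures of a line, and culture density at harvest was not given in the sources used here. No value below therefore has a replicate error, no test of significance is given, and every fold describes these 2 arrays.

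Cells enter mitosis when cyclin A and cyclin B activate the kinase Cdk1. Condensin and topoisomerase II compact the chromosomes, kinesin motors build the spindle, and the anaphase-promoting complex then marks cyclins and securin for destruction so that sister chromatids separate and the cell divides. Most of these genes are transcribed in late S phase and G2 under the MuvB complex with B-Myb (Mybl2) and FoxM1, and are held down in resting cells by the DREAM form of the same complex. Their transcripts are widely used as a readout of cycling cells in tumours.

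Signals are linear MAS5 units, and differences are log2 of LM8 over Dunn on the brightest measured probe set of each gene. The floor was the median signal of each array, 21.1 in Dunn and 18.96 in LM8, and 1 array above its floor sufficed for a probe set to count as measured. LM8 exceeded Dunn by 2-fold or more in 38 of the 47 measured genes (80.9%), Dunn exceeded LM8 by that much in none, and 9 genes fell between. Over all measured genes the share called higher was 6.51% and the share called lower 8.84%. The median log2 ratio of the mitotic genes was 1.81, with the middle 50% between 1.24 and 2.05, whereas the median of all measured genes was -0.08. On the brightest probe set 46 of the 47 had a higher signal in LM8, the exception being Cit. At least 4-fold higher were 16 of them, against 1.18% of all measured genes, so that they made up 11.4% of the 140 genes in that band while being 0.397% of the genes measured. In bulk RNA, more cycling cells and more of these transcripts per cell cannot be told apart.

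**Figure D1:**
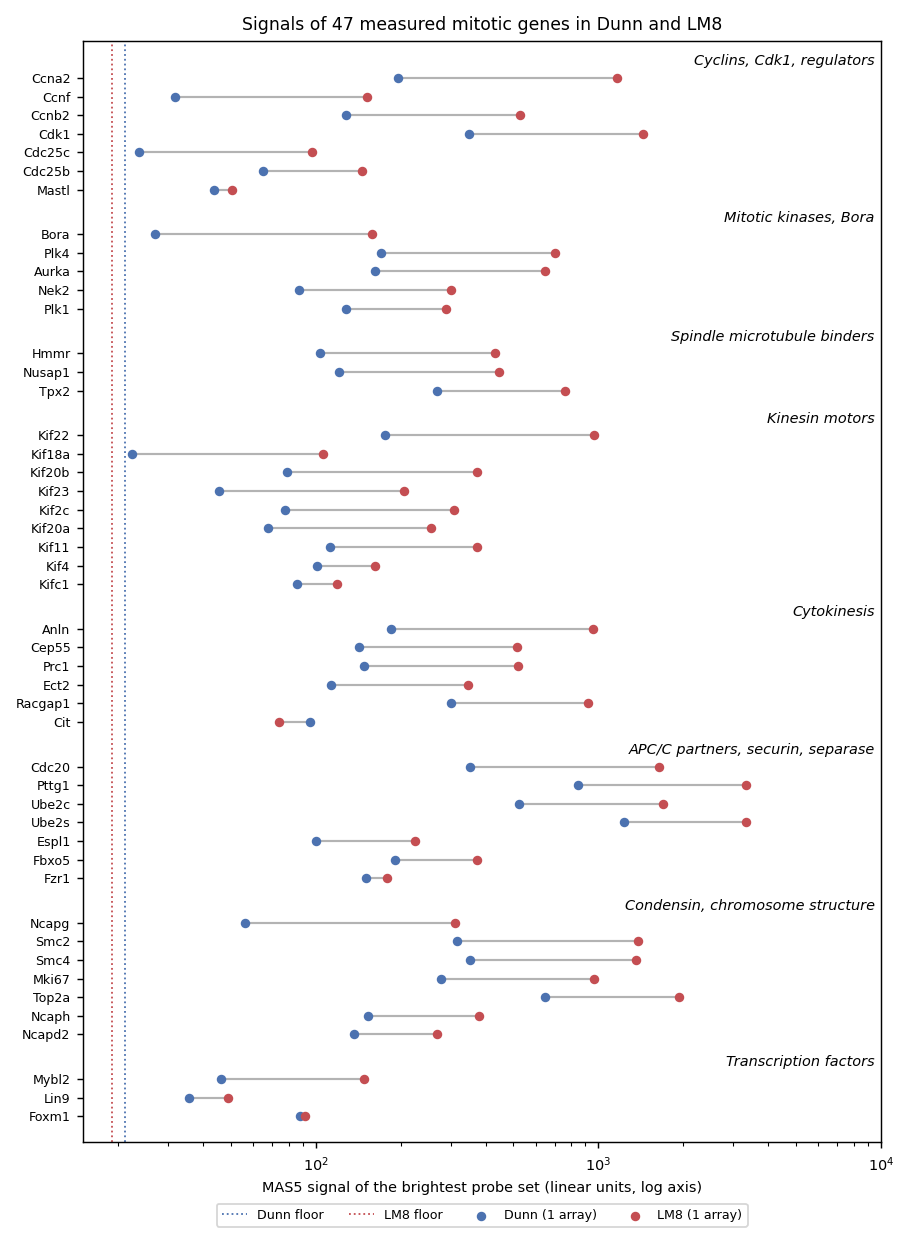
Signal of the brightest probe set of each of 47 measured mitotic genes in Dunn (blue) and LM8 (red), 1 array each, on a log axis, grouped by role and ordered by log2 ratio within a role; dotted lines mark the floor of each array. The red point lies to the right for 46 genes, and Cit is the exception.

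Most promoter windows at hand for these genes hold a short element already known from mitotic genes. The list was chosen as mitotic genes, so how often the element occurs in it is not independent of that choice. Mitotic genes are known for the cell cycle homology region (CHR), a 6-base element near the transcription start that the MuvB subunit Lin54 binds, often with CCAAT boxes bound by NF-Y just upstream. RefSeq promoter windows (GRCm38.p6, 250 bases before to 50 bases after the start) were at hand for 42 of the 50 genes. The CHR was searched as TTTGAA or TTCGAA and the NF-Y box as CCAAT, both strands, and no CHR match overlapped a CCAAT match in these windows. Stretches of 110 bases that end at the base before the start are shown for 7 genes with a CHR close to the start that were 2-fold higher in LM8, from different steps of mitosis, and for Fzr1, which was not 2-fold apart and has none. Genes of the opposite kinds are not shown. Kif4, Kifc1 and Fbxo5 had a CHR close to the start and were not 2-fold apart. Plk4, Kif18a and Pttg1 had none in the window and were 2-fold higher. Capitals mark CHR matches (TTTGAA, or TTCAAA read from the other strand) and CCAAT boxes (CCAAT, or ATTGG from the other strand).
Cdk1 (chr10:69352913-69353022, minus strand): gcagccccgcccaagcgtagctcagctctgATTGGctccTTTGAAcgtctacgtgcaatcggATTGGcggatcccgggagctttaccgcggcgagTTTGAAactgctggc
Cdc20 (chr4:118437344-118437453, minus strand): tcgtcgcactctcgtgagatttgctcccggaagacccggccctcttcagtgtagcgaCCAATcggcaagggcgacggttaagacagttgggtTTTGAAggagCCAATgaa
Ube2c (chr2:164769819-164769928, plus strand): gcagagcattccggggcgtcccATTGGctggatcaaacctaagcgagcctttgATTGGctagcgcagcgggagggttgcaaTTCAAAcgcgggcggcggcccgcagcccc
Kif22 (chr7:127042421-127042530, minus strand): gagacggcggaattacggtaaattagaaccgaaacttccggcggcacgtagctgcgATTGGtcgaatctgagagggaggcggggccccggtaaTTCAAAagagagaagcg
Kif11 (chr19:37376272-37376381, plus strand): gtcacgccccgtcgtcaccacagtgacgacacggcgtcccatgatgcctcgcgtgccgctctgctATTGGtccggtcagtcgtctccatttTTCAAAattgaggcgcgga
Ncapg (chr5:45669815-45669924, plus strand): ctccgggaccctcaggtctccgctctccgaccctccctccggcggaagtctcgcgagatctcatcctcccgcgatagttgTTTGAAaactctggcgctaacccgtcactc
Espl1 (chr15:102296183-102296292, plus strand): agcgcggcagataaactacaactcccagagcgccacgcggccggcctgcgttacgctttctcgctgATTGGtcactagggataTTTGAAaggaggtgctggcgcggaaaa
Fzr1 (chr10:81378371-81378480, minus strand): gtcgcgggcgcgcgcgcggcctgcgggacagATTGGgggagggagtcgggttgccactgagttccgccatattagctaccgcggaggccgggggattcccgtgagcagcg
All 8 stretches run 5′ to 3′ on the strand of the gene.

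A CHR was found in the windows of 31 of the 42 mitotic genes (73.8%), against 21.7% of all 27025 genes with a window and 16.6% of the 9614 measured ones. The matches gathered at the start of the gene. Within 40 bases of it, a distance chosen after the positions were seen, 26 of the 42 genes (61.9%) had a match, against 5.20% of all genes. In the shown stretches the first base of the element nearest to the start lay 15 bases before it in Cdk1, 18 in Cdc20, 29 in Ube2c, 17 in Kif22, 19 in Kif11, 30 in Ncapg and 27 in Espl1.

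A CCAAT box was present in 29 of the 42 genes (69.0%), against 41.1% of all genes, and 25 (59.5%) held both elements, against 8.61%. The E2F site, searched as TTTNGCGC, on both strands like the sites that follow, was found in 5 (11.9%), against 1.57% of all and 2.86% of measured genes, and the forkhead site GTAAACA in 1 (2.38%), against 4.05%. The GC box GGGCGG, common in promoters of expressed genes, was found in 31 (73.8%), against 38.2% of all and 67.9% of measured genes. For CCAAT the share of measured genes was 43.2%, for both elements 6.69% and for the forkhead site 3.12%. These matches are letters in a window and show nothing about binding in these cells.

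**Figure D2:**
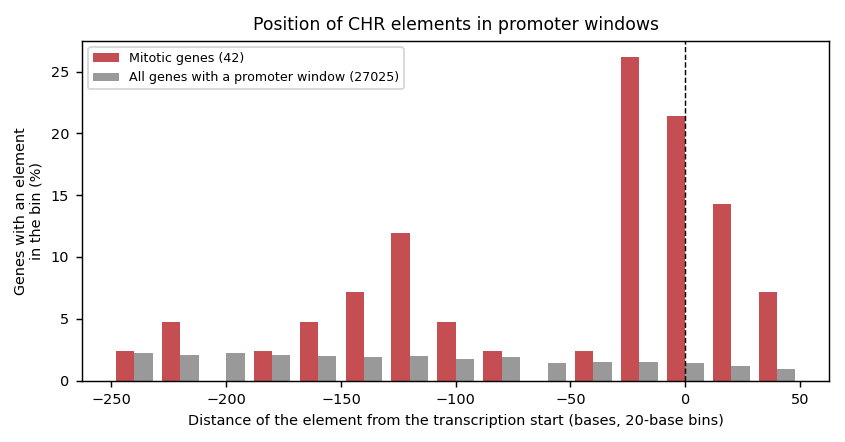
Share of genes with a CHR element (TTTGAA or TTCGAA, both strands) starting in each 20-base bin of the promoter window, for 42 mitotic genes (red) and all 27025 genes with a window (grey); the dashed line is the transcription start. The tallest bin of the mitotic genes, 10 to 30 bases before the start, holds 26.2% of them against 1.47% of all genes.

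Called genes were found both with and without the element. Of the 29 measured genes with a CHR 25 (86.2%) were 2-fold higher, with a median log2 ratio of 1.81, and of the 10 without it 7 were, with a median of 1.73. The 10 were Nek2, Mastl, Kif18a, Nusap1, Ncaph, Mybl2, Plk4, Cit, Fzr1 and Pttg1. Among them lay 3 of the 9 mitotic genes that were not 2-fold apart, namely Mastl, Cit and Fzr1. Of the rest of the 9, Kif4, Kifc1, Fbxo5 and Ncapd2 had a CHR, and Foxm1 and Lin9 had no window at hand.

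The transcription factors of the mitotic programme had the lowest median of the role groups on the brightest probe set (0.47), but not with probe sets averaged, where it was 0.92 against 0.75 for the spindle microtubule-binding genes. Foxm1, the forkhead factor of G2 genes, gave a signal of 87.8 in Dunn against 91.7 in LM8 on its brightest probe set, a log2 ratio of 0.06. Its other measured probe sets stood at 45.0 against 80.5 and 28.7 against 41.8, so all 3 were higher in LM8 and none was 2-fold apart. Mybl2, which encodes B-Myb, gave a signal of 46.2 in Dunn against 147 in LM8, 3.19-fold higher. Its dimmer probe set, with Dunn at the floor, was at least 1.38-fold higher. Lin9, a MuvB core subunit, had signals of 35.5 and 49.0 on the brighter probe set and 25.3 and 65.2 on the dimmer one, log2 ratios of 0.47 and 1.37. Only the dimmer probe set of Lin9 was therefore 2-fold apart. Of the 3 factors 1 was called.

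Of the listed cyclins, Cdk1 and its listed regulators, all measured genes but 1 were 2-fold higher in LM8. Ccna2, the gene of cyclin A (chr3:36564865-36573038 in GRCm38.p6), had a signal of 195 in Dunn and 1167 in LM8. At 5.99-fold it ranked 51 among the 11830 measured genes, with 2.03 in log2 ratio on its other probe set. Cdk1, the kinase that cyclins A and B activate, had signals of 349 and 1439, 4.12-fold higher in LM8. Its partner Ccnb2, the gene of cyclin B2, had signals of 128 and 529, which is 4.15-fold. Cdk1 and Ccnb2 thus differed by almost the same factor, each on 1 probe set.

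Ccnf, whose product is the substrate receptor of a ubiquitin ligase despite its cyclin name, had signals of 31.6 and 151, 4.79-fold higher. A second probe set of Ccnf, with Dunn at its floor, was at least 1.53-fold higher. Phosphatases that remove the inhibitory phosphates of Cdk1 differed in size. Cdc25c had signals of 23.7 and 96.5, 4.08-fold higher, with the Dunn value close to the floor, and Cdc25b had 65.0 and 146, 2.24-fold higher. Cdc25a, a phosphatase of the same family that was placed in another list, had signals of 182 and 210, a log2 ratio of 0.20. Mastl, the Greatwall kinase that restrains the phosphatase PP2A in mitosis, was the group's exception at 43.6 and 50.7, a log2 ratio of 0.22. Its other measured probe set had 21.3 and 70.4, a log2 ratio of 1.72, so the size for Mastl depends on the probe set. Of the 7 measured genes of this group 6 were called, with a median log2 ratio of 2.04.

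All 5 mitotic kinase genes, counting the activator Bora, were 2-fold higher in LM8, with a median log2 ratio of 2.00. Bora, which lets Aurora A activate Plk1, stood at 27.0 in Dunn and 157 in LM8, 5.83-fold higher. Its second probe set was at least 3.72-fold higher, with Dunn at the floor. Aurka, the gene of Aurora A, the kinase of spindle poles, had signals of 162 and 647, 3.998-fold higher. Plk4, the kinase that starts centriole duplication, had signals of 171 and 700, 4.11-fold higher, and its 3 probe sets lay between 1.85 and 2.04 in log2 ratio.

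Plk1, the polo-like kinase that acts from mitotic entry to cytokinesis, had signals of 128 and 289 (2.25-fold). Nek2, a kinase of centrosome separation, had signals of 86.8 and 301 (3.46-fold) on a probe set that can match other transcripts. Its other measured probe set had 63.9 and 92.1, a log2 ratio of 0.53, under the 2-fold rule.

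Among the proteins that bind spindle microtubules, Hmmr gave the most even reading. It encodes the hyaluronan-mediated motility receptor, which acts in spindle assembly, and its brightest probe set gave a signal of 104 in Dunn against 431 in LM8 (4.15-fold). All 5 of its probe sets were 2-fold higher, between 1.33 and 2.37 in log2 ratio. Tpx2, the activator of Aurora A on the spindle, had signals of 269 and 759 (2.82-fold). Its probe sets disagreed, with log2 ratios of 1.50 and 1.46 on the brightest and another but 0.58 and -0.76 on the other two. Nusap1, which bundles spindle microtubules around chromosomes, had signals of 120 and 446 (3.71-fold). Its other probe set was close to the floor, at 24.7 in Dunn and below the floor in LM8, where Dunn was at least 1.30-fold higher.

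Of the 11 kinesin genes 9 were measured, and 7 of these were 2-fold higher in LM8, with a median log2 ratio of 1.99. Kif22, a chromokinesin that pushes chromosome arms to the equator, gave a signal of 176 in Dunn against 964 in LM8. It was 5.48-fold higher on a probe set that can match other transcripts, and its 3 probe sets lay between 1.77 and 2.45 in log2 ratio. Kif18a, which dampens chromosome oscillations at metaphase, had signals of 22.4 and 106 (4.74-fold), with Dunn just above the floor. Kif20b, a motor of late cytokinesis, had signals of 79.2 and 373 (4.70-fold), and Kif23, the motor subunit of centralspindlin, had 45.2 and 205 (4.53-fold). The other measured probe set of Kif20b had 26.8 and 64.1 (2.39-fold). That of Kif23, with Dunn at the floor, was at least 2.92-fold higher.

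Kif2c, which depolymerises microtubules at centromeres, had signals of 77.5 and 307 (3.96-fold). A pair of further probe sets of Kif2c gave log2 ratios of 1.89 and 1.87, and the dimmest, with Dunn at the floor, was at least 1.07-fold higher. Kif20a, needed at the spindle midzone, had signals of 67.9 and 257 (3.78-fold), and Kif11, the motor that separates spindle poles, had 112 and 370 (3.31-fold). The 3 probe sets of Kif11 lay between 1.18 and 1.73 in log2 ratio. The 2 motors under the 2-fold rule were Kif4, a chromokinesin of the midzone, with signals of 101 and 162 (log2 ratio 0.68), and Kifc1, a minus-end motor, with 85.9 and 119 (0.47). Both were nonetheless higher in LM8, each on 1 probe set. Kif14 had raw signals of 2.24 and 9.79 and Kif15 of 1.05 and 9.41, all below the floors, so no direction is given for them.

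Around the anaphase-promoting complex, activators, ubiquitin-conjugating enzymes and substrates differed unequally. Cdc20, the activator that starts anaphase, gave a signal of 350 in Dunn against 1643 in LM8 (4.70-fold), and its 3 probe sets lay between 1.98 and 2.69 in log2 ratio, the last a lower bound with Dunn at the floor. Fzr1, the alternative activator Cdh1 that acts in mitotic exit and G1, had signals of 150 and 178, a log2 ratio of 0.24 on its 1 probe set. The activators of metaphase and of mitotic exit therefore differed by different amounts. Fbxo5, the gene of the inhibitor Emi1, had signals of 191 and 372 and lay just under the rule at 1.95-fold.

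Ube2c, which starts ubiquitin chains on the complex's substrates, had signals of 523 and 1698 (3.25-fold), and Ube2s, which lengthens them, had 1234 and 3332 (2.70-fold). Pttg1, the gene of securin, had signals of 848 and 3330 (3.93-fold), with a second probe set at 3.02-fold and a dim further one at least 1.997-fold higher. Espl1, the gene of separase that securin holds in check, had signals of 100.4 and 224 (2.23-fold). Securin and separase were thus both higher in LM8. Of these 7 genes 5 were called, and the median log2 ratio was 1.43.

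Condensin genes were higher in LM8, most evenly for the SMC subunits that form its ring. Smc2 gave a signal of 316 in Dunn against 1384 in LM8 (4.37-fold), and its 4 measured probe sets lay between 1.97 and 2.13 in log2 ratio. Smc4 had signals of 351 and 1360 (3.88-fold), and its 3 probe sets lay between 1.89 and 1.99. These were among the narrowest ranges of any gene here with more than 1 measured probe set. The 3 other subunits of condensin I spread more widely. Ncapg had signals of 56.0 and 312 (5.57-fold), Ncaph had 153 and 379 (2.49-fold), and Ncapd2 had 136 and 269 (1.98-fold). Ncapd2 alone lay under the rule, and its dimmer probe set, with Dunn at the floor, was at least 1.16-fold higher.

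Top2a, topoisomerase II alpha, which untangles sister chromatids, had signals of 649 and 1931 (2.97-fold), with 1.87 in log2 ratio on its second probe set. Mki67, the gene of the proliferation marker Ki-67 that coats mitotic chromosomes, had signals of 278 and 968 (3.49-fold) on 1 probe set. Of the 7 genes of chromosome structure 6 were called, with a median log2 ratio of 1.80.

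Cytokinesis genes were higher in LM8 apart from Cit. Anln, the gene of anillin, the scaffold of the contractile ring, gave a signal of 185 in Dunn against 956 in LM8 (5.17-fold). Cep55, which recruits the abscission machinery to the midbody, had signals of 142 and 516 (3.63-fold), and Prc1, which bundles midzone microtubules, had 148 and 517 (3.50-fold). The centralspindlin subunit Racgap1 had signals of 300 and 916 (3.06-fold), and Ect2, the exchange factor it recruits to activate RhoA, had 113 and 346 (3.06-fold). Racgap1 and Ect2 differed by the same factor to 3 digits on these probe sets. The other measured probe set of Racgap1 had signals of 171 and 461 (2.69-fold). Cit, the citron kinase of the midbody, had signals of 95.6 and 74.1 on a probe set that can match other transcripts, a log2 ratio of -0.37. Its other measured probe set had signals of 57.2 and 114, a log2 ratio of 0.998, so Cit has no settled direction. Of the 6 genes 5 were called, with a median log2 ratio of 1.71.

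Probe sets of the same gene gave the one spread at hand. Of 93 measured probe sets of these genes 72 were 2-fold higher in LM8 and 0 were 2-fold lower, while 3 lay below 0, belonging to Tpx2, Nusap1 and Cit. In 18 of the 30 genes with at least 2 measured probe sets every one was 2-fold higher. Within a gene, log2 ratios of its probe sets had an SD whose median was 0.39 in these genes and 0.30 over 5521 genes of the series, a spread over probes and isoforms, not over replicates. Differences between 2 members smaller than this are not told apart here. For 11 genes the brightest probe set was of a type marked in its identifier as able to match other transcripts, namely Plk4, Nek2, Kif2c, Kif22, Kifc1, Prc1, Cit, Cdc20, Ube2s, Pttg1 and Ncaph. The other 36 genes held 29 calls and a median of 1.83, beside the 6.51% called higher over all measured genes.

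**Figure D3:**
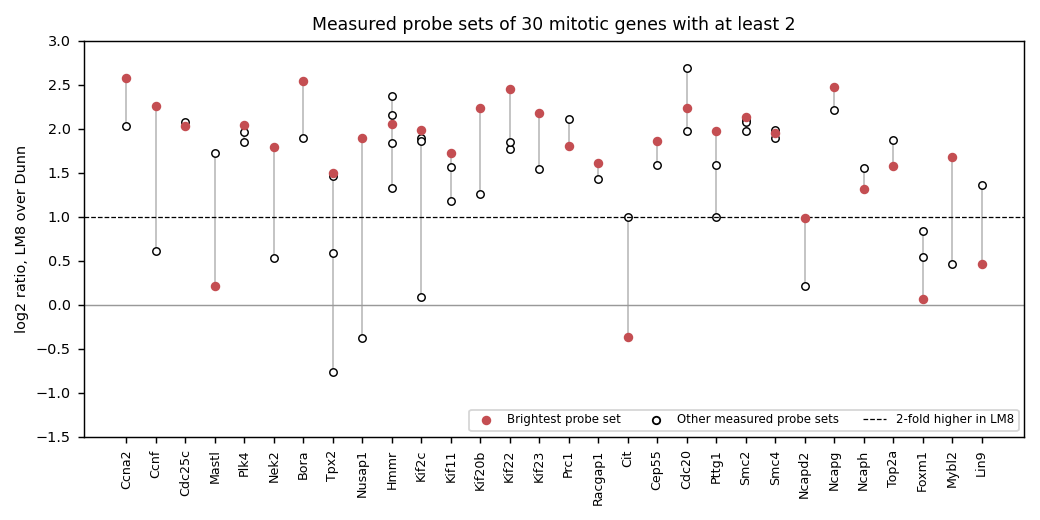
Log2 ratio of LM8 over Dunn for every measured probe set of 30 mitotic genes with at least 2, the brightest filled and the others open, with the 2-fold line dashed. In 18 genes all points lie above the line, and Tpx2, Nusap1 and Cit have a point below 0.

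Brightness and chromosome were looked at beside these counts. Of the 35 mitotic genes with a mean signal above the median of measured genes 31 (88.6%) were called, against 5.93% of all genes that bright, and of the 12 dimmer ones 7 (58.3%) were, against 7.08%. The 47 brightest probe sets all lay above both floors, so none of the folds for them is a bound. The 50 genes lie on 17 chromosomes, and the 38 called ones on 14.

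Other lists were set beside the members, and their medians were lower than that of the 47 genes. Over all measured genes 6.51% were called higher and 8.84% lower, so a small list with no call does not stand apart from the series. The 13 core subunits of the anaphase-promoting complex, all measured, held no call, with a median log2 ratio of 0.23. Cdc23 (199 in Dunn and 364 in LM8), Cdc27 (139 and 245) and Anapc4 (404 and 601) had the largest ratios, 0.87, 0.82 and 0.57. Probe sets of Cdc23 spanned 0 (-0.08 to 0.87). Of 12 other regulators of Cdk1 and of mitotic exit, such as Wee1 and PP2A subunits, none was called and the median was 0.23, with Cdc14a (16.0 and 29.4, Dunn at the floor, with another probe set at -0.09), Ensa (396 and 550) and Ppp2r2a (353 and 490) furthest from 0.

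The 3 subunits particular to condensin II had no call, at 0.90 for Ncapg2 (149 and 279), 0.59 for Ncapd3 (191 and 289) and -0.06 for Ncaph2 (546 and 524), whose 4 probe sets ran from -0.49 to 0.50. Cohesin, which holds sister chromatids together, and its regulators had 4 of 14 higher, none lower and a median of 0.42. Esco2, which acetylates cohesin in S phase, was 3.21-fold higher (26.9 and 86.2), Stag1 2.40-fold (244 and 586) and Smc3 2.09-fold (473 and 990). The 6 probe sets of Stag1 ran from -0.28 to 1.45 in log2 ratio, and the other one of Smc3 gave 0.27. With the probe set nearest to 0 taken for each gene, the cohesin median was -0.05.

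Transport kinesins and light chains, which carry cargo outside mitosis, had none of 16 measured higher and 1 lower. Their median of -0.03 became positive with arrays centred on their medians (0.12) or on hybridisation controls (0.21), with the floor at each array's 75th percentile (0.11), and with quantile normalization (0.02) or signal-dependent centring (0.02). Furthest from 0 on the brightest probe set were Kif1c (112 and 54.2), the 1 call, Kif21a (69.7 and 35.6) and Kif3a (158 and 233). Probe sets of Kif1c ran from -1.05 to 0.23 in log2 ratio and those of Kif3a from -0.97 to 0.56, so neither has a settled direction, while both of Kif21a were below 0. In the mitotic kinesins described above, 7 of 9 were called. Among 10 further subunits of DREAM and MuvB, 2 were 2-fold higher, none lower, and the median was 0.30. These were Lin54 (74.1 and 176), which binds the CHR, and Lin37 (49.7 and 105), while Tfdp2 went the other way (169 and 89.0, log2 ratio -0.92).

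Centriole and centrosome genes had the highest median of these lists on the reported settings, with all 11 measured above 0, 4 of them 2-fold higher, and a median of 0.93. Sass6, which forms the centriole cartwheel, had signals of 38.4 and 96.3, Cep192 of 78.4 and 184 and Cdk5rap2 of 27.2 and 58.5. Under the 75th percentile floor that median was 0.28, below those of condensin II (0.59) and cohesin (0.49). The second probe set of Sass6 had a log2 ratio of 0.04. Of 14 genes of the actomyosin ring and abscission, which act in many processes besides division, none was called and the median was 0.03, turning to -0.00 with quantile normalization and with signal-dependent centring. Myl9 (258 and 130), Rock1 (244 and 453) and Mylk (224 and 359) were furthest from 0. The differences between these lists and the mitotic genes were not tested.

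**Figure D4:**
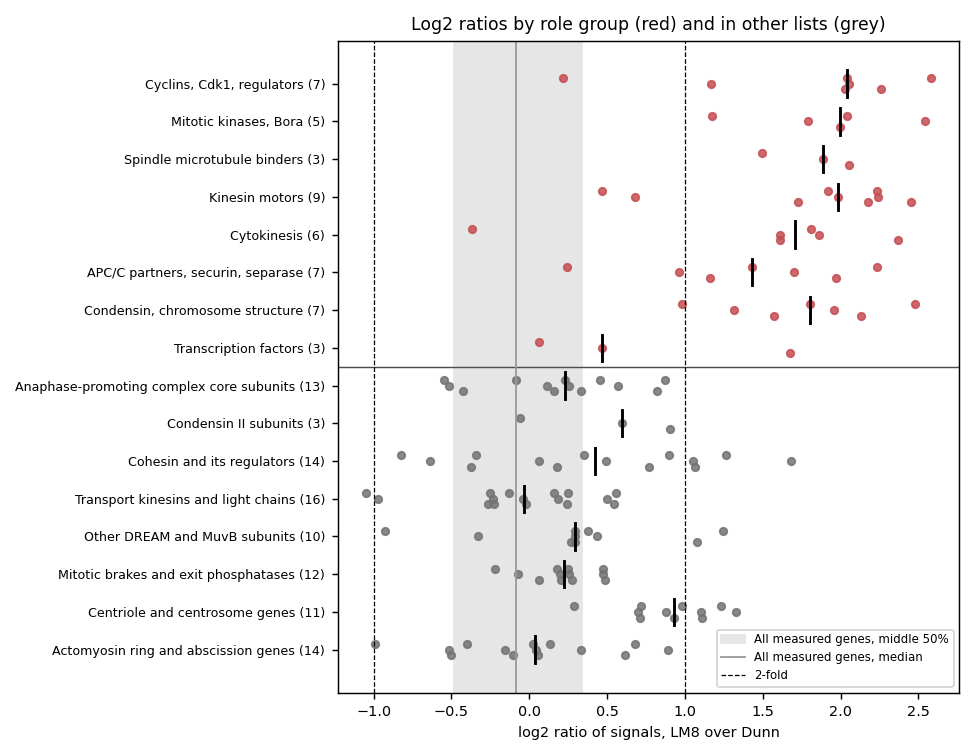
Log2 ratio of LM8 over Dunn for each measured gene of the 8 role groups (red) and of 8 other lists (grey), with the list median as a black bar, the 2-fold lines dashed, and the median and middle 50% of all measured genes in grey. Medians run from 1.43 to 2.04 in the role groups other than the transcription factors, and from -0.03 to 0.93 in the other lists.

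Over the series, the rank order of non-control signals was much alike between the arrays (Spearman 0.870, over probe sets and not over replicates). Gapdh gave 3′ over 5′ signal of 0.708 in Dunn and 0.789 in LM8, and beta-actin 1.26 and 1.16. Of 8 osteoblast lineage genes 6 were measured, none was 2-fold higher and 2 were lower (Ibsp and Pth1r). Their summed signals were 14491 in Dunn and 13958 in LM8, with Col1a2 (8785 and 7350) the largest part. The 3 probe sets of Col1a2 ran from -0.26 to 1.73 in log2 ratio. Ibsp was weaker, at 239 and 96.6. Markers of other cell types were dim. Of 6 macrophage markers 5 were measured, all below 0 in log2 ratio on the brightest probe set and 2 of them 2-fold lower in LM8 (Csf1r and Lyz2). Their summed signal without the floor was 233 in Dunn and 94.9 in LM8, and Ptprc was below both floors. The 3 probe sets of Csf1r ran from -1.49 to 0.48, so it has no settled direction. Cd68, Adgre1 and Lyz2 had LM8 at the floor, so their ratios are bounds. Of 4 endothelial markers 1 was measured (27.95 and 27.96), with Pecam1, Cdh5 and Tek below both floors, and of 4 epithelial markers 2 were, with a summed signal of 66.0 and 51.6 and Cdh1 and Krt18 below both floors. Their part in the difference of the mitotic genes was not tested. Over all genes 770 were 2-fold higher and 1046 lower, and with arrays centred on their medians these counts were 1025 and 775.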

How the data were processed

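Per the submitters' processing notes the authors ran MAS5, with version and settings not given in the sources used here, and deposited 1 linear signal intensity per probe set. Each array had a 2% trimmed mean of 100.0 in the values. The 64 control probe sets were left out, and the arrays were put on a common 2% trimmed mean. Signals under the array median were set to it. Symbols came from the platform annotation, updated by gene identifier against GRCm38.p6 (99.4% of 34958 probe sets with 1 symbol matched). Each gene was read from its brightest measured probe set (mean of both log2 signals). A call means at least 2-fold apart. Where either array sat at its floor, the fold is a lower bound and is written as at least N-fold, and log2 ratios, medians and plots use the floored value.

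With 1 array per line no test was possible, the number of arrays limits the precision, and detection calls were not used here. The mitotic genes and all gene lists were chosen with earlier results of these data known. All members are named, and of each other list the 3 largest absolute log2 ratios. Alternatives covered 4 scalings, 2 other floors, no floor, a pseudocount, 2 gene summaries and 2 call rules. Promoter sequences came from RefSeq (GRCm38.p6) and motif shares count a gene if any of its windows matched. The steps were tested on simulated data in which only bright genes were changed, by folds well above the call rule. Dim genes and folds near the rule were therefore not covered. Software was matplotlib 3.10.9, statsmodels 0.14.6, pandas 2.3.3 and numpy 2.4.6 under Python 3.11.15.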

Additional observations from a re-analysis of the deposited data

How the results depend on the processing

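Under 12 alternatives and 2 more chosen after the data were seen (without probe sets able to match other transcripts, and with only probe sets above both floors), between 31 and 40 mitotic genes met the call rule as higher in LM8 and none as lower. The lowest count, 31, came from the 3-fold rule, from requiring all probe sets of a gene to be 2-fold apart, and from the probe set with the log2 ratio nearest to 0. Over all measured genes these settings called 2.49%, 4.36% and 4.38% higher. Genes with 1 measured probe set meet the second of these rules on that probe set alone. Taking the probe set nearest to 0 gave a median of 1.43 in place of 1.81 and turned Nusap1 to -0.38, with LM8 at its floor. Cit, not called, was 0.32 with probe sets averaged, 0.26 under the 75th percentile floor and 0.998 without probe sets able to match other transcripts. Centring on array medians moved the median of all genes from -0.08 to 0.07, and scaling on 12 hybridisation controls (mean log2 ratio -0.24, SD 0.10) moved it to 0.16. Both add 1 constant to every log2 ratio, and under both Fbxo5 and Ncapd2 became 2-fold higher. Scaling on the controls gave 1237 genes higher (10.5%) and 639 lower over the series, and centring on array medians gave 8.66% higher. The floor at the 75th percentile left 44 mitotic genes measured and 32 higher, without Ccnf, Cdc25b, Cdc25c, Bora, Kif18a and Mybl2, whose signals are low. Under that floor 5.13% of all measured genes were higher. With neither floor nor filter 40 of 49 were higher, among 14.0% of all genes. The order of the largest ratios moved: Ccna2 led at 2.58 over Bora at 2.54, but Bora led with quantile normalization (2.61 against 2.57), and Anln (2.37) led Ccna2 (2.31) with probe sets averaged. Kif22 was 1.85 without probe sets able to match other transcripts. No paired analysis was possible because each line has 1 array.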

Other observations

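The CHR element was also looked at in measured genes outside the mitotic list. Only the listed members were left out, so other cell cycle genes were not removed, and their part in the counts was not looked at. Of 344 such genes with a CHR within 40 bases of the start, 60 (17.4%) were called higher in LM8 and 21 lower, with a median log2 ratio of 0.10. Of 9231 without it there, 517 (5.60%) were higher and 832 lower, with a median of -0.09. Most genes with the element near the start were thus not 2-fold apart. With a CHR and a CCAAT box anywhere in the window, 83 of 619 genes (13.4%) were higher and 41 lower, with a median of 0.08. Of genes that lacked this pair 5.52% were higher. With the E2F site 24 of 271 (8.86%) were higher and 14 lower, with a median of 0.15, against 5.94% higher without it. The differences were not tested.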
